A study of Mus musculus with 36 samples.

Results

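The response of cultured mouse astrocytes to a necroptosis stimulus given together with a RIPK1 kinase inhibitor was described from 3 libraries of astrocytes treated with TNF, a Smac mimetic, zVAD and Nec-1s (T/S/Z/N) and 3 vehicle libraries (DMSO, spelled DSMO in the sample titles). These 6 libraries were chosen by their labels, among 12 astrocyte libraries and 36 libraries of the whole study, and were paired by replicate number. The other astrocyte groups, with 3 libraries each, received Nec-1s alone or the stimulus without Nec-1s (T/S/Z). Treatment lasted 4 h in all groups. The cells came from brains of C57BL/6 pups aged 2 to 4 days, with no engineered allele named in the labels. Mixed glia were grown for 12 days, the microglia were taken out by CD11b selection, and the astrocytes were selected from what was left and rested for 24 to 48 h. Replicates were called biological replicates, and because brains were pooled, the p-values measured the spread between these samples only. A gene entered the test when its log2 value was at least 1 in 3 or more of the 12 astrocyte libraries, which kept 13842 of 14551 genes.

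TNF binds TNF receptor 1 and assembles a receptor complex in which RIPK1 acts both as a scaffold and as a kinase. The scaffold recruits the kinases that activate NF-kB and the MAP kinases, and these in turn drive chemokine, cytokine and adhesion genes. Smac mimetics remove the cIAP ubiquitin ligases, and zVAD blocks caspases including caspase-8, so that TNF can drive the RIPK1, RIPK3 and MLKL pathway of necroptosis. Nec-1s inhibits the kinase activity of RIPK1 and leaves the protein in place. Astrocytes are glial cells that buffer transmitters, ions and water around neurons, and that turn on inflammatory genes when exposed to TNF. The comparison asked what astrocytes still expressed differently from vehicle when the stimulus was given with the kinase inhibited.

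Levels are on the scale of the table, log2 with 1 added to FPKM, which counts fragments per length of exon and per size of library. Changes are differences of these values, so that the change of a gene with low levels is understated. The first principal component of the 12 astrocyte libraries held 67.6% of the variance and placed the T/S/Z/N libraries at 19.5 to 20.5, the T/S/Z libraries at 36.4 to 37.5 and the DMSO libraries at -30.6 to -27.6. On the second component, with 11.5% of the variance, the T/S/Z libraries were spread, at 25.31, 12.12 and -4.50, DMSO replicate 1 was at 10.16 beside -2.69 and -6.97, and the T/S/Z/N libraries lay between -16.54 and -12.75. The spacing of low values gave a scaled depth of 21300000 to 22400000 fragments per library if 1 step is 1 fragment, and whole reads could not be recovered. The 10 astrocyte markers, including Gfap and Slc1a3, were among the tested genes, and their summed FPKM was 3436 to 3503 in DMSO and 3069 to 3092 in T/S/Z/N. Markers of microglia were present at a summed FPKM of 139 to 150 in DMSO and 125 to 131 in T/S/Z/N, and markers of fibroblasts and meninges at 648 to 664 and 516 to 519. In such bulk samples, fewer cells of a type and less RNA per cell cannot be told apart. A column of the deposited annotation marks 7780 of the 13842 tested genes, Ccl2 and Cxcl10 among them, as confounded without defining the word. It stands on 66 of the 147 genes chosen by rule for naming.

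With RIPK1 kinase inhibited, the stimulus still changed 1257 genes against vehicle, with a fold change over 1.5 and an adjusted p under 0.05. Of the tested genes, 604 (4.36%) rose and 653 (4.72%) fell. The rises were larger than the falls. A change of over 2-fold was found for 296 higher and 90 lower genes, of over 4-fold for 88 and 3, and of over 16-fold for 13 and 0. The median change of all tested genes was -0.07, with the lower quartile at -0.25 and the upper at 0.09. The T/S/Z/N and DMSO libraries did not overlap for 47.6% of all tested genes, 2311 higher and 4273 lower. Groups that do not overlap were thus common, and are mentioned below as a description only. The share of calls that were higher was 48.1%, and it became 57.8% when each library was centred on its median, 59.1% after quantile normalization and 70.5% when 5 instead of 1 was added to FPKM. With the variance of each gene taken alone, at 2 residual degrees of freedom, 50 genes were called.

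Chemokines, the secreted attractants of leukocytes, held the largest rises. Ccl2, which attracts monocytes, was at 3.76, 3.54 and 4.56 in the DMSO replicates and at 11.25, 11.31 and 11.25 in T/S/Z/N. The groups did not overlap, and the rise was 7.32 (SE 0.19, adjusted p = 8.69e-06). Ccl7, its neighbour in function, was at 1.99, 1.89 and 2.43 and at 8.93, 9.02 and 8.95, and rose by 6.86 (SE 0.12, adjusted p = 2.98e-06). Cxcl10, which attracts T cells through CXCR3, was at 3.48, 3.64 and 3.72 in DMSO and at 10.41, 10.66 and 10.60 in T/S/Z/N, a rise of 6.94 (SE 0.06, adjusted p = 2.05e-07). All 3 genes were separated from vehicle by more than the whole range within either group. Cxcl11, which was left out of the ranked rises because the annotation types it as a pseudogene, rose by 5.28 (SE 0.12, adjusted p = 5.21e-06). Ccl5, a T cell and monocyte attractant, rose by 5.20 (SE 0.10, adjusted p = 3.09e-06). In counts, 10 of the 15 CC chemokines listed were tested, and 8 higher and 0 lower calls were made, with a median change of 1.31. Of 13 CXC and CX3C chemokines listed, 11 were tested, and 9 higher and 1 lower calls were made, with a median of 2.27. The lower one was Cxcl14, a chemokine made by resting tissue, with a change of -0.59, at the threshold. It stood at -0.54 after median centring, -0.53 with 5 added to FPKM and -0.57 without replicate 1, and was then not called. Of the tested genes, 3 CC and 6 CXC chemokines, all of them called higher, passed the filter on low values only through stimulated libraries, with fewer than 3 of the 6 DMSO and Nec-1s libraries at a log2 value of 1. Their low levels without the stimulus left little room for a fall, so the counts and medians carry no weight as to how many chemokines could have changed. Among the rest, 5 of 7 CC and 3 of 5 CXC and CX3C chemokines were higher. Cxcl12, the homeostatic ligand of CXCR4, had a change of 0.06 (SE 0.13, adjusted p = 0.771).

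**Figure D1:**
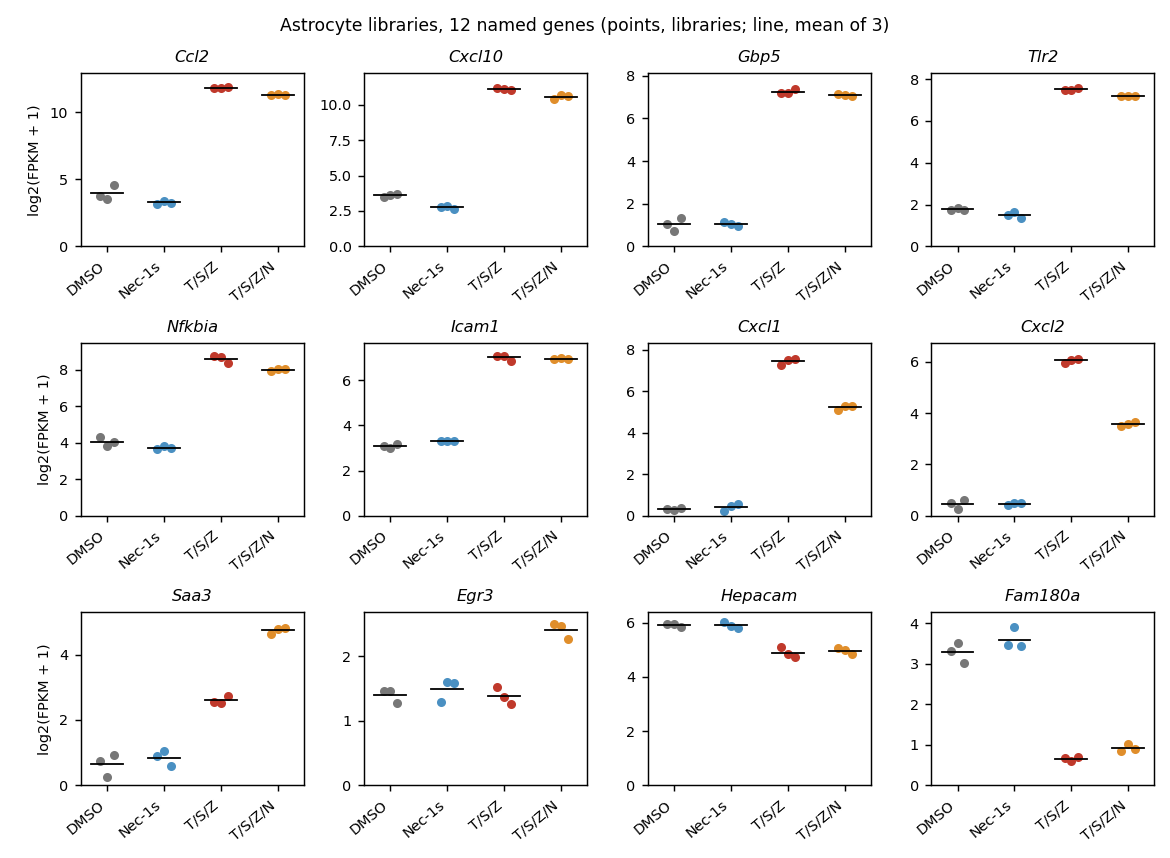
Levels of chosen genes in each of the 12 astrocyte libraries, as log2(FPKM + 1), with 1 point per library and a bar at the mean of each treatment of 3. In the T/S/Z/N libraries, Ccl2 sat between 11.25 and 11.31 and Cxcl1 between 5.08 and 5.29, above the DMSO libraries of the same gene.

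Neutrophil-attracting CXC chemokines also rose under Nec-1s, from near the floor. Cxcl1 was at 0.34, 0.28 and 0.38 in DMSO and at 5.08, 5.28 and 5.29 in T/S/Z/N, a rise of 4.88 (SE 0.09, adjusted p = 3.09e-06). Cxcl2 was at 0.52, 0.26 and 0.60 and at 3.48, 3.56 and 3.65, a rise of 3.10 (SE 0.10, adjusted p = 1.99e-05). The groups of both genes were far apart. Cxcl5, another ligand of CXCR2, rose by 2.67 (SE 0.12, adjusted p = 7.03e-05). Among the CC chemokines, Ccl20, which attracts CCR6-bearing cells, rose by 2.69 (SE 0.11, adjusted p = 4.25e-05), whereas Ccl3 and Ccl4, the macrophage inflammatory proteins, rose by 0.71 and 0.64 only, with adjusted p = 0.00667 and 0.024. Ccl3 and Ccl4 stood at 0.21 and 0.19 with 5 added to FPKM, and 5 CC chemokines were then called. Without replicate 2 both lost the call (adjusted p = 0.0539 and 0.0911), as did Ccl4 without replicate 3. Ccl3 and Ccl4 are also made by microglia, whose markers were present at the summed levels given above, and the part of those cells in these values was not tested.

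Of 27 cytokines and growth factors listed, 24 were tested, and 14 higher and 0 lower calls were made, with a median change of 0.93. With 5 added to FPKM, 9 were called, the median was 0.34, and Il1b and Tnf, at 0.42 and 0.28, were not among them. Through stimulated libraries alone, 9 of the 24 passed the filter, 7 of them higher, Csf2, Il6, Il1b and Tnf included, and of the other 15 genes 7 were higher. Pdgfb, a mitogen for pericytes and glial progenitors, rose by 2.61 (SE 0.12, adjusted p = 7.03e-05), Lif by 2.58 (SE 0.09, adjusted p = 2.56e-05) and Il6 by 2.58 (SE 0.15, adjusted p = 1.52e-04), both ligands of receptors that signal through gp130. Csf2, or GM-CSF, was at 0.08, 0.23 and 0.08 in DMSO and at 2.46, 2.37 and 2.38 in T/S/Z/N, and rose by 2.27 (SE 0.10, adjusted p = 6.27e-05). All 3 stimulated libraries lay above all 3 vehicle libraries. Csf1, the survival factor of microglia and macrophages, was higher in vehicle already, at a mean of 6.48, and rose to 8.75, by 2.27 (SE 0.06, adjusted p = 8.75e-06). Il1b rose by 1.23 (SE 0.10, adjusted p = 6.54e-04), while Il1a had a change of 0.48 (SE 0.11, adjusted p = 0.0206) and Il33, an alarmin of glia, of 0.06 (SE 0.08, adjusted p = 0.647). Tnf itself rose by 0.98 (SE 0.10, adjusted p = 0.00119) from a vehicle mean of 0.19.

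Most of the genes listed as NF-kB inhibitors and feedback genes rose, although some of the list, such as Tnfaip2, do not encode inhibitors of NF-kB. Of the 16 genes listed as inhibitors and feedback genes, 16 were tested, and 13 higher and 0 lower calls were made, with a median change of 1.504. Nfkbia, which encodes IkB-alpha and holds NF-kB in the cytoplasm, was at 4.31, 3.82 and 4.06 in DMSO and at 7.93, 8.06 and 8.03 in T/S/Z/N, a rise of 3.94 (SE 0.12, adjusted p = 1.44e-05). The groups did not overlap. Nfkbie rose by 3.87 (SE 0.08, adjusted p = 3.09e-06), Tnfaip3, the ubiquitin editor A20, by 3.64 (SE 0.10, adjusted p = 8.69e-06), and Tnfaip2, a TNF-induced exocyst-related gene, by 5.20 (SE 0.12, adjusted p = 5.21e-06). Traf1, which NF-kB also induces in many cells, had a change of -0.22 (SE 0.10, adjusted p = 0.137), and Tnip2, an A20 partner, of -0.13 (SE 0.15, adjusted p = 0.549). The 11 subunit and kinase genes included 7 higher and 0 lower calls, with a median of 0.86, which became 4 calls and a median of 0.41 with 5 added to FPKM. Nfkb2 and Relb, the subunits of the noncanonical pathway, rose by 2.70 (SE 0.07) and 2.59 (SE 0.09), and Rela by 0.82 (SE 0.08). The IkB kinase genes Chuk, Ikbkb and Ikbkg had changes of 0.18, 0.15 and -0.14, none of which passed the test.

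To show the regulatory sequence beside these values, the 250 bases before the gene start were taken from RefSeq (GRCm38.p6) for 7 genes, the first 5 of the largest rises found in that table and Gbp2 and Nfkbia, chosen for their roles. It holds 118 of the 147 named genes. Capitals mark matches on either strand to the NF-kB motif or to the core of the interferon-stimulated response element, which is GAAA, 2 bases of any kind and GAAA again. The NF-kB motif is GGGRNYYYCC, where R is A or G, Y is C or T and N is any base. The motifs were searched for by letters alone. A match is a description of the letters and not a binding site. In Cxcl10 the 2 NF-kB matches overlap and lie on the same strand. The positions are chr5:92348890-92349139, minus strand for Cxcl10, chr3:142496684-142496933, plus strand for Gbp5, chr3:83841609-83841858, minus strand for Tlr2, chr12:111442411-111442660, plus strand for Tnfaip2, chr5:90890995-90891244, plus strand for Cxcl1, chr3:142620413-142620662, plus strand for Gbp2 and chr12:55492648-55492897, minus strand for Nfkbia, each written 5′ to 3′ on the gene's strand.
Cxcl10: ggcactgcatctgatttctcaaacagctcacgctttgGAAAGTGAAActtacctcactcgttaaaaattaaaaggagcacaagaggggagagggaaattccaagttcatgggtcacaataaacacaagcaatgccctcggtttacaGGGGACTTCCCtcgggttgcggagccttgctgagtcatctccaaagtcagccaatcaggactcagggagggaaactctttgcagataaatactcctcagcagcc
Gbp5: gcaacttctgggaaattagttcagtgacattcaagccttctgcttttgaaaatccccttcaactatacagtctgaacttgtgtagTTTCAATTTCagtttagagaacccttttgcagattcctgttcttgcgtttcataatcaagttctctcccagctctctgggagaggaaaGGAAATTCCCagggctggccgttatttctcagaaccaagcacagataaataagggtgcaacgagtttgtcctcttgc
Tlr2: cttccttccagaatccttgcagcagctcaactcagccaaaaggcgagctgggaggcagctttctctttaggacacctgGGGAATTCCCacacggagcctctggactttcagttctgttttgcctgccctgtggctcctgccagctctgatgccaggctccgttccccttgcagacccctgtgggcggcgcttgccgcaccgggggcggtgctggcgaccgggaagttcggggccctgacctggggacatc
Tnfaip2: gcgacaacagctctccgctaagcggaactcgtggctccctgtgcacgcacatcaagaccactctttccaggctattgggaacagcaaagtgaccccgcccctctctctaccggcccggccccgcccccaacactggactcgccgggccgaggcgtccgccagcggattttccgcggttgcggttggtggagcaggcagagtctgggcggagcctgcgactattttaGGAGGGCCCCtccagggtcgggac
Cxcl1: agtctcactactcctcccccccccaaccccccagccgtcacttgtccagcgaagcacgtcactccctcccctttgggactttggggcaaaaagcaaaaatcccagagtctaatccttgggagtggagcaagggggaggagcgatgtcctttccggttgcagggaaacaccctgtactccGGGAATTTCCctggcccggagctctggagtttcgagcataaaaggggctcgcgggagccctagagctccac
Gbp2: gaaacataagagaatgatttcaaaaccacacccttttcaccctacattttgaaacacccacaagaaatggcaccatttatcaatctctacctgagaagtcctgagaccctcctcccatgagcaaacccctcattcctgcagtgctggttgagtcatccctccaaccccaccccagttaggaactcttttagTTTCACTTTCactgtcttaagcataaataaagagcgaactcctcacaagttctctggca
Nfkbia: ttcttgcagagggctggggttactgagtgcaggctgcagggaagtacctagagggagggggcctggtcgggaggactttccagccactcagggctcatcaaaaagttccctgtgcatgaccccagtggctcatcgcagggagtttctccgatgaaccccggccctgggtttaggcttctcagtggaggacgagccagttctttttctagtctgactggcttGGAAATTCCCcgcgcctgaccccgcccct

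In these windows Cxcl10 and Gbp5 hold both motifs, Gbp2 holds the interferon-type core, and Tlr2, Tnfaip2, Cxcl1 and Nfkbia hold the NF-kB motif. Among all 32851 promoter windows of the table, 1643 (5.00%) hold the NF-kB motif and 978 (2.98%) the interferon-type core. Of the genes tested, 10489 have a window, of which 612 (5.83%) and 276 (2.63%) hold them. Among the 604 higher genes, 432 have a window, with 64 (14.8%) and 46 (10.6%). For the 88 genes higher by over 4-fold, 58 have a window, with 21 (36.2%) and 11 (19.0%). For the 653 lower genes, 466 have a window, with 24 (5.15%) and 11 (2.36%). No test was made of these shares.

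In the TNF receptor complex and the necrosome, Mlkl, Birc2, Birc3, Zbp1, Tnfrsf1b, Traf2 and Cflar rose. All 25 listed were tested, and 7 higher and 0 lower calls were made, with a median of 0.21. Ripk1, the kinase that Nec-1s inhibits, was at 4.24, 4.31 and 4.31 in DMSO and at 4.63, 4.59 and 4.69 in T/S/Z/N. These groups did not overlap, as for 47.6% of all tested genes, and the change of 0.34 (SE 0.07, adjusted p = 0.0156) was under the fold threshold. Mlkl, which forms the pore of necroptosis, was at 1.20, 0.84 and 0.84 and at 2.38, 2.49 and 2.27, and rose by 1.42 (SE 0.12, adjusted p = 6.54e-04). The kinase between them, Ripk3, had a change of -0.39 (SE 0.10, adjusted p = 0.0336) and was not called. Birc3 and Birc2, the cIAP ligases that Smac mimetics remove as proteins, rose by 3.21 (SE 0.10, adjusted p = 1.49e-05) and 1.34 (SE 0.08, adjusted p = 1.66e-04). Zbp1, the nucleic acid sensor that can engage RIPK3, rose by 1.65 (SE 0.09, adjusted p = 1.42e-04), Tnfrsf1b, TNF receptor 2, by 1.16 (SE 0.10, adjusted p = 8.77e-04) and the adaptor Traf2 by 1.15 (SE 0.11, adjusted p = 0.00122). Cflar, the caspase-8 inhibitor FLIP, rose by 0.67 (SE 0.07, adjusted p = 0.00174). Tnfrsf1a, which encodes TNF receptor 1, had a change of 0.03 (SE 0.06, adjusted p = 0.719), and its adaptor Tradd of 0.09 (SE 0.11, adjusted p = 0.547). Casp8 and Fadd had changes of 0.34 and 0.17. The others, which encode ubiquitin ligases, deubiquitinases and TAK1 subunits, lay between -0.45 for Sharpin and 0.38 for Traf5, and were not called. Of 16 tested BCL-2 family genes, 4 higher and 1 lower calls were made. Bcl2a1d, a higher one, passed the filter on low values only through stimulated libraries, and of the other 15 genes 3 were higher. Bid, the caspase-8 substrate, rose by 1.64 (SE 0.09, adjusted p = 1.46e-04), and Bcl2, which protects cells, fell by 0.59 (adjusted p = 0.00505). The fall of Bcl2 was at the threshold. It stood at -0.39 with 5 added to FPKM, -0.52 after quantile normalization and -0.54 after median centring, and had an adjusted p of 0.0584 without replicate 2, so that none of these fits called it. With 5 added to FPKM, Cflar and the Bcl2a1 genes also stayed under the fold threshold, which left 1 higher BCL-2 family gene, Bid. The 3 other higher BCL-2 family genes were Bcl2a1a, Bcl2a1b and Bcl2a1d, near-identical copies between which reads may be split, so that their separate values are uncertain.

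Interferon-type genes rose under Nec-1s in large numbers. The 15 tested interferon-inducible GTPases, which act against intracellular pathogens, were 15 higher and 0 lower, with a median change of 2.65, and 2 more of the list were not in the table. Gbp5 was at 1.07, 0.70 and 1.35 in DMSO and at 7.16, 7.09 and 7.05 in T/S/Z/N, a rise of 6.06 (SE 0.13, adjusted p = 4.88e-06). Gbp2 was at 4.99, 5.10 and 5.20 and at 9.38, 9.38 and 9.29, a rise of 4.25 (SE 0.08, adjusted p = 2.98e-06). Neither gene's groups came near each other. The smallest rise in the list was that of Irgm1, at 1.63. Gbp and Tgtp genes include close copies, and values of single copies are uncertain. Of 28 tested interferon-stimulated genes, 21 higher and 0 lower calls were made, with a median of 1.25. Rsad2, the antiviral viperin, rose by 3.79 (SE 0.12, adjusted p = 1.57e-05), Irf1, a transcription factor that TNF and interferons both induce, by 3.03 (SE 0.07, adjusted p = 5.28e-06), and Ifit1 by 2.83 (SE 0.17, adjusted p = 1.63e-04). The other 7 were not called. Ifit2 had a change of 0.22 (SE 0.09, adjusted p = 0.102), Bst2 of 0.04 (SE 0.10, adjusted p = 0.782) and Irf9 of 0.14 (SE 0.12, adjusted p = 0.396). Of the 8 tested genes that signal to or from interferon, Ifnar1 rose, by 0.81 (SE 0.07, adjusted p = 5.6e-04), and the others were not called. Ifnb1 was not among the genes of the table. The MHC class I pathway, which loads peptides for T cells, was 17 higher and 0 lower of 19 tested, with a median of 1.14. Psmb8, an immunoproteasome subunit, rose by 2.57 (SE 0.14, adjusted p = 1.4e-04), and the peptide transporter gene Tap2 by 2.17 (SE 0.08, adjusted p = 2.23e-05). B2m, the shared light chain, was already at 9.20 in vehicle and had a change of 0.32 (SE 0.07, adjusted p = 0.018).

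Icam1, Vcam1 and Tlr2 were among the surface receptors for leukocytes and microbial products that rose. Icam1, the ligand of leukocyte integrins, was at 3.08, 3.00 and 3.18 in DMSO and at 6.95, 6.96 and 6.94 in T/S/Z/N, a rise of 3.86 (SE 0.07, adjusted p = 2.98e-06). Vcam1 rose by 3.47 (SE 0.09, adjusted p = 8.75e-06) and E-selectin, Sele, by 3.15 (SE 0.09, adjusted p = 1.13e-05). Cd274, the checkpoint ligand PD-L1, rose by 2.48 (SE 0.09, adjusted p = 2.88e-05). Of 13 tested adhesion and costimulation genes, 10 higher and 0 lower calls were made, with a median of 1.30. Sele, Selp, Madcam1, Cd274 and Cd86 entered the test only through stimulated libraries, with 4 of these 5 higher, and of the other 8 genes 6 were higher. Tlr2, the receptor for bacterial lipoproteins, was at 1.73, 1.83 and 1.73 and at 7.19, 7.17 and 7.17, a rise of 5.41 (SE 0.07, adjusted p = 9.88e-07). The libraries of each group lay close together and far from the other group. Tlr4, for lipopolysaccharide, had a change of 0.12 (SE 0.10, adjusted p = 0.401) and Tlr3 of 0.38 (SE 0.11, adjusted p = 0.0522). Of the 11 tested Toll-like and lectin receptor genes, 6 higher and 0 lower calls were made, with a median of 0.69, which became 3 higher calls and a median of 0.36 with 5 added to FPKM.

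Of 17 tested inflammatory enzymes, 10 higher and 0 lower calls were made, with a median of 1.02. Acod1, which makes itaconate, was at 0.12, 0.05 and 0.09 in DMSO and at 3.19, 3.27 and 3.11 in T/S/Z/N, a rise of 3.10 (SE 0.10, adjusted p = 1.57e-05). Ptgs2 and Ptges, which make prostaglandin E from arachidonate, rose by 2.58 (adjusted p = 6.43e-05) and 2.09 (adjusted p = 2.56e-05). Ch25h, which makes 25-hydroxycholesterol, rose by 2.50 (SE 0.10, adjusted p = 4.86e-05), and Nos2, inducible nitric oxide synthase, by 2.07 (SE 0.11, adjusted p = 1.08e-04). Hmox1, the haem oxygenase of oxidative stress, had a change of 0.05 (SE 0.08, adjusted p = 0.706). Immediate early genes, whose products include the AP-1 factors, were 12 higher and 0 lower of 19 tested, with a median of 0.80. Junb rose by 2.32 (SE 0.11, adjusted p = 8.26e-05), Ier3 by 1.83 (SE 0.09, adjusted p = 9.62e-05) and Atf3 by 1.48 (SE 0.08, adjusted p = 1.08e-04), while Fos and Jun had changes of 0.39 and 0.58 and were not called. Of 8 tested MAP kinase phosphatases, 3 higher and 1 lower calls were made, and 1 higher with 5 added to FPKM. Dusp8 rose by 1.10 (SE 0.10, adjusted p = 9.35e-04) and Dusp14 fell by 0.97 (adjusted p = 3.07e-04), while Dusp1 had a change of 0.16 (SE 0.09, adjusted p = 0.224). Dusp8 stayed under the fold threshold with 5 added to FPKM.

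The list medians of genes with low levels depend on the 1 added to FPKM. When 5 was added, the median became 0.68 for the CC chemokines, 1.33 for the CXC and CX3C chemokines, 1.61 for the interferon-inducible GTPases, 0.77 for the interferon-stimulated genes, 0.95 for the NF-kB inhibitors and feedback genes, 0.69 for adhesion and costimulation, 0.57 for the matrix proteases and inhibitors and -0.22 for the Hedgehog, Notch and Wnt targets, with no change of sign in these lists. Members that passed the filter on low values only through stimulated libraries also stand in other lists, and without them 11 of 11 GTPases, 18 of 25 interferon-stimulated genes, 7 of 14 inflammatory enzymes, 12 of 14 NF-kB inhibitors and feedback genes, 6 of 10 NF-kB subunits and kinases, 4 of 9 Toll-like and lectin receptors, 12 of 19 matrix proteases and inhibitors and 2 of 14 complement genes were higher. Over all tested genes, 345 entered in this way, of which 105 were called higher and 1 lower.

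**Figure D2:**
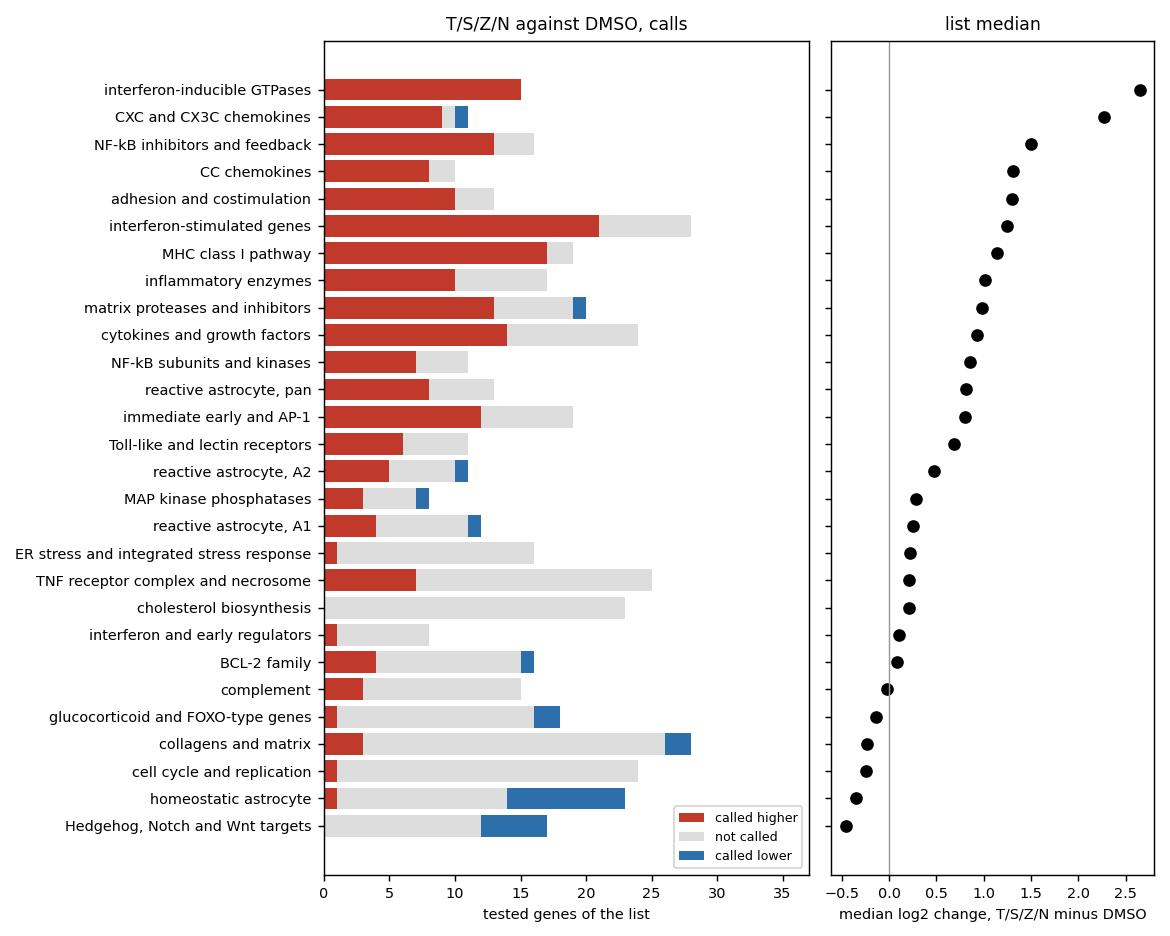
Number of tested genes of each pathway list that were called higher or lower in astrocytes treated with T/S/Z/N against DMSO, with the rest not called (left, bars in genes), and the median log2 change of each list (right, points). The interferon-inducible GTPases were 15 of 15 higher, and the homeostatic astrocyte genes 9 of 23 lower.

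Genes used to describe reactive astrocytes gave a mixed picture. The pan-reactive genes were 8 higher and 0 lower of 13 tested, with a median of 0.81. Lcn2, a secreted iron-siderophore carrier, rose by 3.67 (SE 0.11, adjusted p = 1.55e-05), and Steap4, a metalloreductase, by 3.13 (SE 0.07, adjusted p = 5.21e-06). The intermediate filament genes Gfap and Vim had changes of -0.32 (SE 0.07, adjusted p = 0.0198) and -0.37 (SE 0.07, adjusted p = 0.0144) and were not called. Of the genes ascribed to neurotoxic (A1) astrocytes, 4 higher and 1 lower of 12 were called, with a median of 0.25. The higher genes were Gbp2, Iigp1, Psmb8 and H2-D1, interferon-type and antigen presentation genes that other lists also hold. Without replicate 2, H2-D1 had an adjusted p of 0.0505. By contrast, Serping1, a complement inhibitor of the same list, had a change of -0.02 (SE 0.07, adjusted p = 0.876). Among those ascribed to A2 astrocytes, 5 higher and 1 lower of 11 were called, with a median of 0.48. Ptx3, a secreted pattern recognition protein, rose by 2.93 (SE 0.10, adjusted p = 2.01e-05), and Emp1, a membrane protein, fell by 0.83 (adjusted p = 4.35e-04).

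Among genes of the resting functions of astrocytes, more calls were lower than higher. Of 25 listed, 23 were tested, and 1 higher and 9 lower calls were made, with a median of -0.35 against -0.07 over all tested genes. The number lower was 7 after median centring, 8 after quantile normalization and 4 with 5 added to FPKM. Hepacam, an adhesion protein of astrocyte endfeet, was at 5.94, 5.97 and 5.85 in DMSO and at 5.08, 4.99 and 4.86 in T/S/Z/N, and fell by 0.94 (SE 0.07, adjusted p = 3.18e-04). Its groups did not overlap. Sox9 and Nfia, the transcription factors of the astrocyte lineage, fell by 0.75 (adjusted p = 0.00168) and 0.78 (adjusted p = 0.00154). Kcnj10, the channel that clears potassium, fell by 0.72 (adjusted p = 0.00189), and the connexin gene Gja1 by 0.59 (adjusted p = 0.00212). Slc1a3 and Slc1a2, which encode the glutamate transporters, had changes of 0.07 and -0.14, and Apoe, the lipid carrier, of -0.16, none of them called. Nfia and Gja1 stayed under the fold threshold with 5 added to FPKM, and Gja1 also after median centring and without replicate 2 or 3. The water channel gene Aqp4 went the other way, from 8.21, 8.35 and 8.46 to 9.16, 9.13 and 9.09, a rise of 0.79 (SE 0.08, adjusted p = 0.00127).

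**Figure D3:**
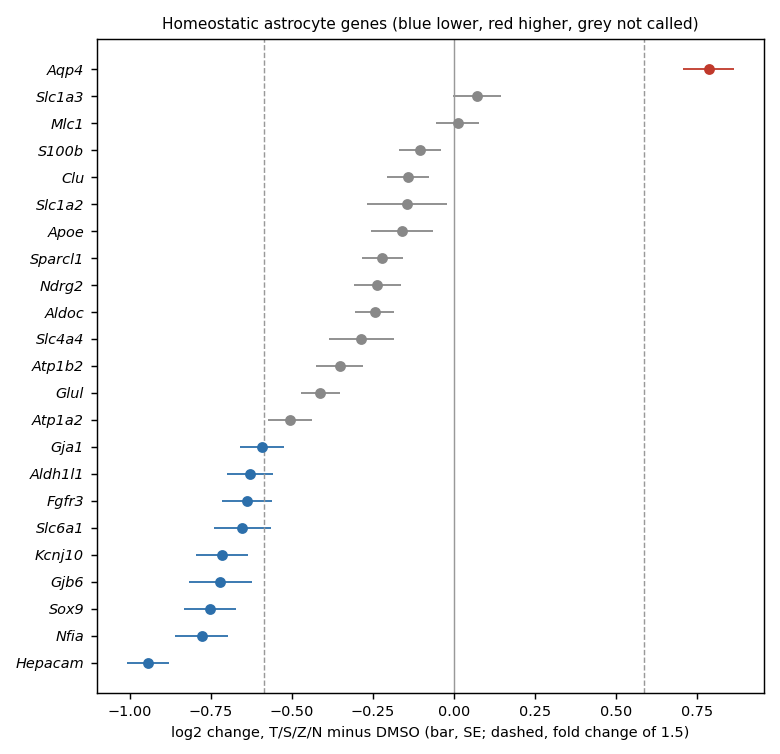
Change of each tested homeostatic astrocyte gene in T/S/Z/N against DMSO, in log2 units, with bars of 1 SE and dashed lines at the fold change of 1.5. Aqp4 stood at 0.79 and Hepacam at -0.94, with Slc1a3 and Mlc1 near 0.

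Matrix proteases and their inhibitors included more higher than lower calls, and few collagen genes passed the test in either direction. Of 20 tested proteases and inhibitors, 13 higher and 1 lower calls were made, with a median of 0.98. The higher calls were 10 of 20 with 5 added to FPKM, and 6 of 13 among those whose log2 level averaged 3 or more. Mmp3, stromelysin 1, rose by 4.59 (SE 0.07, adjusted p = 2.67e-06), Mmp13, a collagenase, by 3.30 (SE 0.11, adjusted p = 1.85e-05) and Mmp9, a gelatinase, by 2.98 (SE 0.10, adjusted p = 1.9e-05). Timp3, a protease inhibitor bound to matrix, fell by 0.70 (adjusted p = 0.00109). Of 28 tested collagen and matrix genes, 3 higher and 2 lower calls were made, with a median of -0.24. Col1a1 fell by 0.84 (adjusted p = 9.85e-04), and Tnc, tenascin C, rose by 0.72 (SE 0.07, adjusted p = 9.35e-04). Col3a1, Dcn and Lum had changes of -0.48, 0.17 and -0.01. The fibroblast and meningeal markers, 10 of 10 tested, were 0 higher and 3 lower, and none was at 0. Of these, 1 was lower with 5 added to FPKM. The collagen and matrix list holds 5 of these markers (Col1a1, Col1a2, Col3a1, Dcn and Lum), which made up at least 92.9% of the marker sum in DMSO, so that the sum is no separate measure beside the collagens. The 5 markers outside it (Pdgfrb, Twist1, Foxc1, Aldh1a2 and Tbx18) summed to an FPKM of 44 to 46.7 in DMSO and 31.1 to 31.2 in T/S/Z/N, with 2 of 5 lower, and their part in the collagen values was not tested. Complement genes were 3 higher and 0 lower of 15 tested, with a median of -0.02, and 1 was called with 5 added to FPKM. C3, the central component, rose by 1.37 (SE 0.07, adjusted p = 8.62e-05), and C4b had a change of 0.03 (SE 0.06, adjusted p = 0.771).

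Markers of other cells in the culture were also counted. The astrocyte markers were 1 higher and 3 lower of 10 tested, the higher one being Aqp4. The lower calls were 1 after median centring, which took those of Aldh1l1 and Gja1, and 2 with 5 added to FPKM or with any 1 replicate left out. Microglial markers were 0 higher and 2 lower of 14 tested, and P2ry12 was in the table below the filter. Tmem119 and Trem2 were the lower ones, at -1.19 and -0.59. Neither was called with 5 added to FPKM, and Trem2 was not called after median centring or quantile normalization or without replicate 1 or 2, which left Tmem119 alone. By comparison, Csf1r and Itgam had changes of -0.12 and -0.09. Markers of the oligodendrocyte lineage were 0 higher and 2 lower of 8 tested, with a summed FPKM of 182 to 208 in DMSO and 127 to 134 in T/S/Z/N, mostly from Olig1 and Cnp. The lower calls were 1 with 5 added to FPKM and after median centring or quantile normalization, since Pdgfra, at -0.63, lost its call. Endothelial markers were 1 higher and 1 lower of 4 tested, with Kdr lower at -1.46 and Flt1 higher at 0.71. Flt1 lost its call with 5 added to FPKM and without replicate 1, 2 or 3 (adjusted p = 0.0515, 0.0676 and 0.0531). Pecam1 and Cldn5 were not among the genes of the table. Of the pericyte and smooth muscle markers, the neuron markers and the ependymal and choroid markers, 5, 4 and 6 were tested and none was called in either direction, except 1 neuron marker, higher after median centring, after quantile normalization and without replicate 3.

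**Figure D4:**
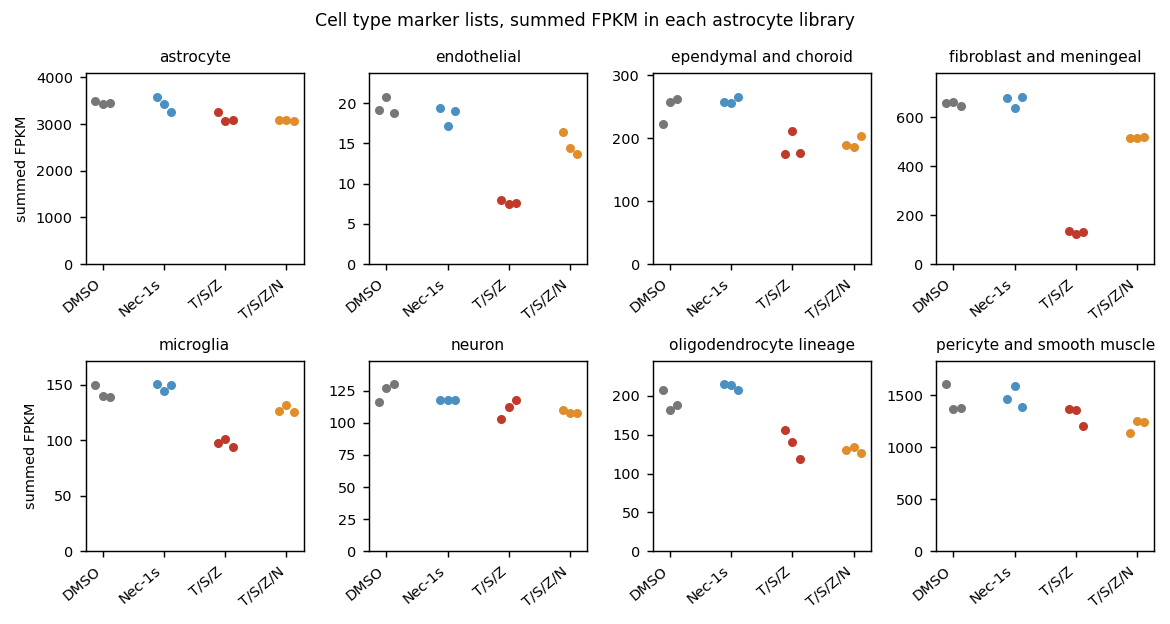
Summed FPKM of the marker genes of each cell type in each of the 12 astrocyte libraries, with 1 point per library. Fibroblast and meningeal markers summed to 648 to 664 in DMSO, 123 to 134 in T/S/Z and 516 to 519 in T/S/Z/N.

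Among single genes, the 10 largest falls that were alike in every pair are given with pseudogenes and predicted genes left out, of which 74 were among the lower calls. Of the 3 genes lower by over 4-fold, Gm10297 and Gm9797 were left out in this way. Fam180a, a gene of little known function, was at 3.30, 3.50 and 3.02 in DMSO and at 0.85, 1.03 and 0.90 in T/S/Z/N, and fell by 2.35 (SE 0.11, adjusted p = 7.0e-05). The groups did not overlap. Adamts15, a matrix protease gene, changed by -1.65, Elobl by -1.63, the catenin gene Arvcf by -1.58, Dhrs3, which reduces retinal, by -1.55, the transcript AW047730 by -1.54, Dio3, which inactivates thyroid hormone, by -1.53, Stard8, a GTPase-activating protein, by -1.52, Cyp1a1, the target of the aryl hydrocarbon receptor, by -1.50, and the potassium channel gene Kcnk2 by -1.48. The adjusted p of these genes ran from 2.56e-05 to 5.56e-04. The list of Hedgehog, Notch and Wnt targets also holds Id and Smad genes. Its 17 tested genes were 0 higher and 5 lower, with a median of -0.46. Hey1, a Notch target, fell by 1.18 (adjusted p = 1.8e-04), Id4, a helix-loop-helix inhibitor of differentiation, by 1.15 (adjusted p = 2.47e-04), and Ptch1 and Gli1, the targets of Hedgehog signalling, by 0.73 (adjusted p = 0.002) and 0.69 (adjusted p = 0.0039). With 5 added to FPKM, Cyp1a1, Ptch1 and Gli1 stayed under the fold threshold and 2 genes of the list were called lower. Gli1 was not called after quantile normalization, at -0.58. Smad7, an inhibitor of TGF-beta signalling in that list, had a change of 0.39 (SE 0.13, adjusted p = 0.0746).

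Nec-1s alone gave a control that also carried the inhibitor, without the stimulus. Against it, 600 genes (4.33%) were higher and 582 (4.20%) lower in T/S/Z/N. Of these calls 50.8% were higher, which became 60.5% after median centring, 58.9% after quantile normalization and 69.9% with 5 added to FPKM. Ccl2 was at 3.17, 3.37 and 3.26 and Cxcl10 at 2.75, 2.88 and 2.63 in the Nec-1s libraries, below the vehicle values in each case, and the rises were 8.00 (SE 0.05, adjusted p = 1.76e-08) and 7.80 (SE 0.07, adjusted p = 5.54e-08). DMSO replicate 3 was the highest of the 6 unstimulated libraries for Ccl2. Gbp5 rose by 6.06 (SE 0.06, adjusted p = 6.68e-08), Icam1 by 3.64 (SE 0.05, adjusted p = 2.05e-07), and Mlkl by 1.30 (SE 0.09, adjusted p = 1.66e-04). Hepacam changed by -0.93 (SE 0.05, adjusted p = 6.85e-05) and Aqp4 by 0.83 (SE 0.06, adjusted p = 1.61e-04). Both comparisons use the same T/S/Z/N libraries, and the values are given side by side for that reason.

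The difference between the response with and without Nec-1s was tested directly, as T/S/Z/N against T/S/Z. Of the tested genes, 209 (1.51%) were higher and 220 (1.59%) lower with Nec-1s. Without replicate 2 the total of 429 became 274, and without replicate 3 it became 761. T/S/Z without the inhibitor had 885 genes (6.39%) higher and 1245 (8.99%) lower than DMSO. Of those calls 41.5% were higher, which became 52.1% after quantile normalization and 57.6% with 5 added to FPKM. The comparisons share libraries, and the values below are side by side. Among the genes changed at least 4-fold by T/S/Z/N, 6 differed least between the stimuli. Mmp10, another stromelysin, was at 4.12, 3.98 and 4.37 in T/S/Z and at 4.15, 3.90 and 4.42 in T/S/Z/N, a difference of 0.00 with a 95% interval from -0.20 to 0.21. The T cell costimulator gene Tnfsf18 differed by -0.01 (95% interval -0.21 to 0.19), Gbp2 by -0.02 (-0.26 to 0.21), AW112010, an interferon-induced transcript, by 0.03 (-0.24 to 0.29), Icam1 by -0.05 (-0.25 to 0.16) and Gbp10 by 0.08 (-0.14 to 0.30). The adjusted p values were 0.982, 0.95, 0.894, 0.891, 0.742 and 0.597, and a p above the threshold does not show that the levels were the same.

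The other 6 genes differed most. Cxcl2 was at 5.96, 6.05 and 6.12 in T/S/Z and at 3.48, 3.56 and 3.65 in T/S/Z/N, and was lower with Nec-1s by 2.48 log2 units (adjusted p = 4.0e-05). Cxcl1 was lower by 2.22 (adjusted p = 4.0e-05), Csf2 by 1.95 (adjusted p = 1.74e-04) and Acod1 by 1.62 (adjusted p = 2.58e-04). Saa3, an acute phase protein, and Mmp9 went the other way. Saa3 was at 0.76, 0.26 and 0.94 in DMSO, at 2.55, 2.53 and 2.74 in T/S/Z and at 4.62, 4.79 and 4.81 in T/S/Z/N, higher with Nec-1s by 2.13 (SE 0.09, adjusted p = 6.87e-05) and higher than DMSO by 4.09 (SE 0.15, adjusted p = 2.56e-05). Mmp9 was at 2.00, 1.73 and 1.62 in T/S/Z and at 3.66, 3.53 and 3.60 in T/S/Z/N, higher by 1.81 (SE 0.10, adjusted p = 2.08e-04). Outside this rule, Ccl3 and Il1b differed by -3.29 (SE 0.13, adjusted p = 4.0e-05) and -2.69 (SE 0.11, adjusted p = 6.58e-05), and Ccl12, a monocyte attractant, by 1.52 (SE 0.12, adjusted p = 7.52e-04), chosen after their values were seen. By list, the GTPases were 0 higher and 0 lower between T/S/Z/N and T/S/Z, the MHC class I pathway 0 and 0, and the homeostatic astrocyte genes 0 and 0. These counts hold at the fold threshold, and the median differences were -0.20, -0.28 and 0.07. Tap2 was at -0.56 (adjusted p = 0.0299) and Gbp9 at 0.34 (adjusted p = 0.0729), both under it. The cytokines were 0 and 12, the interferon-stimulated genes 0 and 11, the NF-kB feedback genes 1 and 7, and the collagens and matrix genes 11 and 1. Of the tested genes, 9 cytokines and 3 interferon-stimulated genes passed the filter only through stimulated libraries. Il1a and Csf3 averaged 3.25 and 1.31 in T/S/Z and 0.62 and 0.29 in T/S/Z/N. The counts of both lists carry no weight as to how many genes could have changed. Col3a1 was higher with Nec-1s by 2.39 (SE 0.08, adjusted p = 4.0e-05) and Dcn by 2.26 (SE 0.09, adjusted p = 6.21e-05). Fibroblast and meningeal markers, at a summed FPKM of 123 to 134 in T/S/Z and 516 to 519 in T/S/Z/N, include these collagens and Dcn. The 5 markers that the collagen list does not hold summed to 12.2 to 12.9 and 31.1 to 31.2, with 3 of 5 higher with Nec-1s. Microglial markers, 2 higher and 0 lower with Nec-1s, summed to 93.6 to 101 in T/S/Z and 125 to 131 in T/S/Z/N, and endothelial markers to 7.46 to 7.95 and 13.7 to 16.4. The part of these marker shifts in the cytokine, chemokine and collagen differences was not tested.

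**Figure D5:**
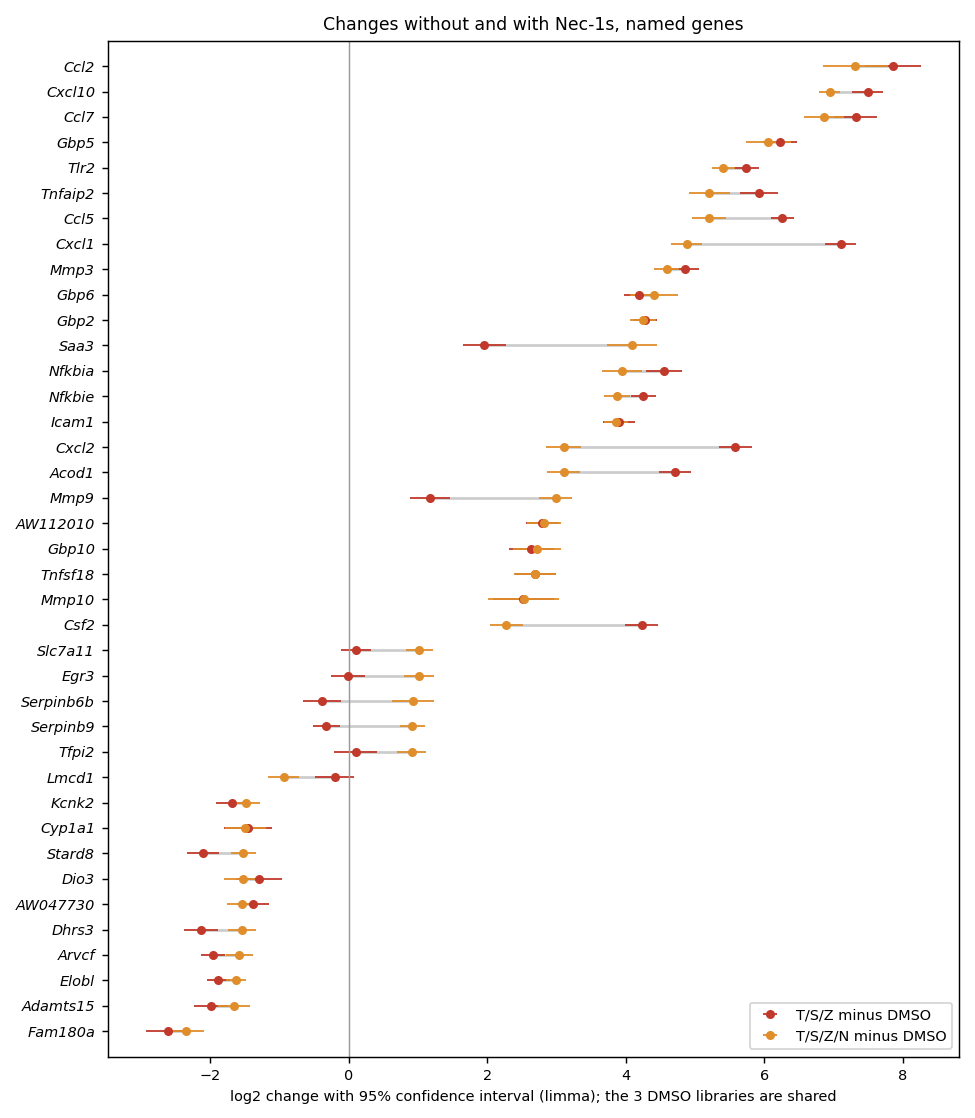
Change against DMSO in log2 units (horizontal axis) for 39 genes, 1 gene per line, without Nec-1s (T/S/Z, red) and with it (T/S/Z/N, orange), with limma's 95% confidence intervals and the same DMSO libraries behind both. Cxcl1 and Cxcl2 sit at 7.11 and 5.58 without and at 4.88 and 3.10 with Nec-1s, while for Saa3 and Mmp9 the orange point lies to the right of the red.

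A smaller set was changed by T/S/Z/N against both DMSO and T/S/Z with little or an opposite change under T/S/Z. This rule held for 16 genes, 12 of them higher. Slc7a11, the cystine transporter that feeds glutathione synthesis, was at 2.90, 3.01 and 3.02 in DMSO, at 3.07, 3.16 and 3.08 in Nec-1s, at 3.09, 3.03 and 3.12 in T/S/Z and at 4.02, 3.97 and 3.99 in T/S/Z/N. The T/S/Z/N libraries lay above the other 9, and the change against DMSO was 1.02 (SE 0.08, adjusted p = 5.25e-04). Egr3, an immediate early transcription factor, was at 1.47, 1.46 and 1.28 in DMSO, 1.52, 1.37 and 1.27 in T/S/Z and 2.50, 2.47 and 2.27 in T/S/Z/N, a change of 1.01 (SE 0.09, adjusted p = 7.71e-04). The serine protease inhibitor genes Serpinb9 and Serpinb6b rose by 0.91 (SE 0.07, adjusted p = 5.56e-04) and 0.93 (SE 0.13, adjusted p = 0.00406) and stood at -0.33 and -0.38 under T/S/Z. Tfpi2, an inhibitor of proteases in the matrix, rose by 0.91 (SE 0.09, adjusted p = 0.00109). Lmcd1, a cofactor that restrains GATA factors, fell by 0.94 (adjusted p = 0.0012). The rule picked these genes on the values given, which are a description. With 5 added to FPKM, Egr3, Lmcd1, Serpinb6b and Tfpi2 stayed under the fold threshold, and without replicate 2 the adjusted p of Serpinb6b was 0.0541.

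Microglia of the same study, treated with T/S/Z/N for the same time, had 653 genes (6.20%) higher and 828 (7.87%) lower than DMSO in 4 libraries of each. Their table was made by another provider and normalized separately, and no test compared it with the astrocyte table. Values stand side by side. Cxcl10 changed by 3.45 in microglia against 6.94 in astrocytes, Ccl2 by 1.89 against 7.32 and Gbp5 by 1.58 against 6.06. Icam1, Nfkbie and Nfkbia changed by 3.90, 3.06 and 3.06, against 3.86, 3.87 and 3.94 in astrocytes. Other genes that rose steeply in astrocytes had small changes in microglia. Ccl5 changed by 0.09, from a DMSO mean of 9.60 there, and Mmp3, Gbp6 and Gbp2 changed by 0.07, 0.29 and 0.32, against 5.20, 4.59, 4.41 and 4.25 in astrocytes.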

How the data were processed

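PolyA RNA of cultured mouse astrocytes (12 libraries) and microglia (24 libraries) was sequenced. With OmicSoft Array Studio, the authors took the reads from alignment to normalized values, deposited as log2 FPKM. The values themselves show a 75th percentile near 4.735 in every astrocyte library and low values that fit 1 added to FPKM; neither step is stated. Astrocyte libraries were stranded, and the aligner's genome build is not given in the sources used here. Counts were not used here, and no count model was run. The microglial table was normalized separately. Its 75th percentiles run from 4.114 to 4.159, its replicates 1 to 3 hold values below 0 (lowest -1.293), and the mean of each gene over treatments is the same in every replicate, by a step that the sources used here do not describe.

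From the deposited log2 values, limma 3.58.1 in R 4.3.3 fitted the compared groups, with replicate number as a block and a variance trend. The tests were 2-sided, with Benjamini-Hochberg adjustment over all tested genes. Genes needed a log2 value of at least 1 in 3 astrocyte libraries (4 microglial libraries). A call needed a fold change over 1.5 and an adjusted p under 0.05. The scripts were tested on simulated data. Alternatives were the fit without the block or with all libraries, 5 added to FPKM, other filters, quantile normalization, median centring, ordinary variance, unadjusted p, a fold change over 2, and each replicate left out.

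The members and lists were chosen with earlier results of these data known. Genes were named by rule: the 15 largest rises and 10 largest falls that moved alike in every pair, pseudogenes and predicted genes left out; the 4 largest changes of each pathway list and all of the TNF receptor complex list; the 6 smallest and 6 largest differences from T/S/Z among changes of at least 2 log2 units; and the 6 largest changes among genes that differed from both DMSO and T/S/Z while T/S/Z itself was within 0.3 of DMSO or opposite. Other list members named in the text were chosen after their values were seen. Depth is known only from the spacing of low values, so intervals cover the spread between libraries. Promoter windows of 250 bases came from RefSeq (GRCm38.p6). A gene chosen by the naming rule is not reported here.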

Additional observations from a re-analysis of the deposited data

Results flagged for a closer look

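In all, 10 of 125 named genes tested in both tables changed in one direction in all 3 astrocyte pairs and in the other in all 4 microglial pairs, T/S/Z/N against DMSO. The share over all genes tested in both tables was not computed. The named genes were mostly chosen by their astrocyte changes, so the count is a description only. The difference between the cell types was not tested, since the tables were normalized separately and the microglial replicates have equal means for each gene, which no source used here explains. The changes follow as astrocyte and then microglial log2 values. In Atf3, a stress factor, they were 1.48 and -0.91. In Fosl2, a member of AP-1, they were 1.36 and -1.18, and in Map3k8, a kinase upstream of ERK, 0.88 and -0.86. These 3 genes were called in both tables, but Map3k8 was at 0.41 in astrocytes with 5 added to FPKM and was then not called. Socs3, a feedback inhibitor of cytokine signalling, gave -0.47 and 3.88. The matrix gene Tnc gave 0.72 and -0.36, the complement receptor gene C3ar1 -0.46 and 0.13 and the replication gene Mcm5 -0.49 and 0.30. In the TNF receptor complex, Ripk1 gave 0.34 and -0.18, Traf5 0.38 and -0.27 and Tab2 -0.27 and 0.28. For the 15 genes with the largest astrocyte rises, the microglial groups of 4 were also searched for a single library far from the others, and none was found in 30 groups.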

How the results depend on the processing

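Without the replicate block, 1264 genes were called for T/S/Z/N against DMSO in place of 1257, 1249 of them called in both fits, and the block changed no other count by over 1.5 times (1182 against Nec-1s, 419 against T/S/Z, 2097 for T/S/Z against DMSO, 1482 in microglia). Same-numbered T/S/Z/N and DMSO libraries deviated from their group means with correlations of -0.14 to 0.07, and over all 4 treatments 5 of 18 same-numbered pairs were above 0.1, among them the 3 pairs of replicate 1 of DMSO, Nec-1s and T/S/Z (0.20 to 0.41). The block follows the study, which used a paired test and gives separate litters as its source of replicates. Whether a number marks 1 litter is not stated for these libraries, and the correlations do not settle it. With 5 added to FPKM the counts were 542 for T/S/Z/N against DMSO, 541 against Nec-1s, 180 against T/S/Z, 985 for T/S/Z against DMSO and 861 in microglia. Requiring a mean log2 value of at least 3 tested 8526 astrocyte genes and left 639, 620, 225 and 1094 calls, and 915 in microglia. A fold change over 2 left 386, 367, 107, 766 and 596. With ordinary per-gene variance, at 2 residual degrees of freedom in astrocytes, 50, 181, 3 and 281 astrocyte calls were left. Leaving out 1 replicate gave 1026 to 1341 calls against DMSO, 1110 to 1379 against Nec-1s, 274 to 761 against T/S/Z, 1675 to 2420 for T/S/Z against DMSO and 1397 to 1572 in microglia. The fit of all libraries, no filter, quantile normalization, median centring and unadjusted p kept each count within 1.5 times. The cause of these shifts was not tested, beyond fewer genes tested or a stricter threshold.

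Of the 147 named genes, 114 were called, and 106 lost the call under at least 1 alternative. Ordinary variance took 104 calls and kept those of Cxcl10, Tlr2, Cxcl1, Mmp3, Nfkbie, Icam1, Nfkb2, Dusp16, Sele and Egr3. Adding 5 took 21, among them Dusp16, Clec4e, Eln, Col11a1, Cfb, C1ra, Sesn1 and Nkd1. Besides the genes given with their results, median centring took the call of Col11a1, and leaving out replicate 2 those of Tgm1 (adjusted p = 0.0605), Eln (adjusted p = 0.0649), Col11a1 and C1ra (adjusted p = 0.0731). Over the replicates left out, the change of Tradd ran from -0.01225 without replicate 3 to 0.1874, and that of Tnfrsf1a from -0.0058 without replicate 3 to 0.0548, neither of them called. Without replicate 3, C1ra lost its call, and Pik3ip1 and Mcm5 gained one. Depth limits the genes near the floor in vehicle, for which the 1 added to FPKM sets much of the fold change.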

Other observations

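Lists outside the inflammatory programme were read in the same comparison. The 23 tested cholesterol biosynthesis genes were 0 higher and 0 lower, with a median of 0.21 against DMSO and 0.04 against Nec-1s. Idi1, an isomerase of the pathway, was at 7.18, 7.34 and 7.44 in DMSO and at 7.71, 7.73 and 7.98 in T/S/Z/N, a change of 0.49 (SE 0.06, adjusted p = 0.00346). Of the 16 tested genes of endoplasmic reticulum stress and the integrated stress response, 1 higher and 0 lower calls were made, with a median of 0.22, the higher one being Atf3. Ddit3, the factor CHOP, had a change of 0.18 (SE 0.07, adjusted p = 0.119).

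Cell cycle and replication genes were 1 higher and 0 lower of 24 tested, with a median of -0.24, the higher one being Cdkn1a, which encodes the cell cycle inhibitor p21, at 0.60 (SE 0.07, adjusted p = 0.00181). Without replicate 2 or 3, Cdkn1a was at 0.57 and 0.58, under the fold threshold. Mki67, a marker of cycling cells, had a change of -0.29 (SE 0.09, adjusted p = 0.0638). Of the 18 tested glucocorticoid and FOXO-type genes, 1 higher and 2 lower calls were made, with a median of -0.14. Tsc22d3, or GILZ, a glucocorticoid target, fell by 0.93 (adjusted p = 0.00118), and Arrdc4 rose by 0.85 (SE 0.08, adjusted p = 9.42e-04). Under T/S/Z the same list was 1 higher and 5 lower against the shared DMSO libraries.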
